A study of Mus musculus with 9 samples.

Results

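The genes of the AP-1 transcription factor and the immediate early genes that are read out with it were followed in Cebpb-ko MEFs, that is mouse embryonic fibroblasts with a knockout of the Cebpb gene. The 10 genes were taken by symbol from the 23337 genes of the count table, and all 10 were found: Fos, Fosb, Fosl1, Fosl2, Jun, Junb, Jund, Egr1, Ier2 and Ier3. RNA was sequenced from 9 libraries. There were 3 of cells with an empty vector (EV), 3 of cells that express LAP and 3 of cells that express LIP. C/EBPβ is a basic leucine zipper transcription factor, of which LAP is the long isoform and LIP a shorter one, translated from a later start codon of the same Cebpb mRNA, that has no transactivation domain. All cells, the EV controls included, carried the Cebpb knockout on a mixed C57BL/6 x 129 background, were immortalised, and were selected with Zeocin after stable transfection with the empty vector or with a vector for the rat isoform. The isoforms therefore came from a vector and not from the cells' own gene. The sources used here do not say whether a line is 1 clone or a pool, nor whether the libraries of a group came from separate cultures, so that p-values measure only the spread between these libraries.

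AP-1 is a pair of basic leucine zipper proteins, a Fos protein with a Jun protein or a pair of Jun proteins, which binds the sequence TGANTCA or the related TGACNTCA. C/EBPβ belongs to the same superfamily. Fos, Fosb, Jun, Junb, Egr1, Ier2 and Ier3 are immediate early genes, whose transcription starts within minutes of serum, growth factor or stress signals without new protein synthesis and for Fos and Egr1 falls again soon after. ERK and other kinases act on this class through ternary complex factors and SRF, which binds the CArG box, and through CREB, which binds TGACGT.

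The start site regions of Fos and Fosb, which moved together, and of Jun, which did not move with them, are printed first. Each runs from 250 bases before to 50 bases after the start of the gene in RefSeq on GRCm38.p6, and is written 5′ to 3′ on the gene's own strand. Capitals mark matches to the motifs named after them.
Fos, chr12:85473640-85473939, plus strand: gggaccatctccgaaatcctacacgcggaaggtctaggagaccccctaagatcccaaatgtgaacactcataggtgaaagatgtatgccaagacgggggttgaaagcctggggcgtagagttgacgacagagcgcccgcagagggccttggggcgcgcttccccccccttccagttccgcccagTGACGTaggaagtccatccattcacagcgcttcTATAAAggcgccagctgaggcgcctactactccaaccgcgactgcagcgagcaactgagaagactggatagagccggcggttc
Fosb, chr7:19309996-19310295, minus strand: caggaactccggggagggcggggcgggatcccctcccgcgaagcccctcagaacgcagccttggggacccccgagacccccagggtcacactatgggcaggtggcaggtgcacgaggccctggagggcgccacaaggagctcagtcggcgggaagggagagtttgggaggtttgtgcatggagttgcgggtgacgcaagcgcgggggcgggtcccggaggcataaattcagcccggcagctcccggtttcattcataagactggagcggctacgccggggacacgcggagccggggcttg
Jun, chr4:95052173-95052472, minus strand: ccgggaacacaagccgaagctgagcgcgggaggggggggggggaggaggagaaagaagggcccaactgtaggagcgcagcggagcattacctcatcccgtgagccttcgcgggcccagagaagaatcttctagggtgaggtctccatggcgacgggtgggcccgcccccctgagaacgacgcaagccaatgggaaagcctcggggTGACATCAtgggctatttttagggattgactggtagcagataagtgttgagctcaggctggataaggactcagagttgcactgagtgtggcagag

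Of the 10 genes, 7 had such a region in the RefSeq table used here, and Fosl1, Egr1 and Ier2 are named only. The motifs were searched on both strands. In Fos the capitals are TGACGT, at -66 to -61 from the start site, and TATAAA, at -33 to -28. In Jun they are TGACATCA, at -45 to -38, a match to TGACNTCA. Among all 32851 regions of this length, 7.51% held TGACGT, 13.6% TATAAA and 8.83% TGACNTCA. The letters TGACGT can also be part of a match to TGACNTCA. TATAAA was also found in Junb, at 1 to 6 from the start site, and so not upstream of it as in Fos. The other motifs searched were TGANTCA (7.81% of all regions), the CArG box (1.63%) and TTGCGCAA, the palindrome bound by C/EBP proteins (0.183%), none of which matched in the 7 regions. Sites further than 250 bases upstream were not searched, so the lack of a match does not mean that a gene has no such site. A match is a run of letters and not a shown site, and the motifs say nothing of binding in these cells.

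The libraries held between 24839139 and 33522082 counts on genes. Levels are given as CPM, counts per 1000000 counts after scaling by edgeR's TMM factors, which lay between 0.949 and 1.10. Scaled by the library totals, 3 counts stand for 0.0895 to 0.121 CPM, a floor that covers counting error only. Of 9 fibroblast markers, 7 exceeded 10 CPM in every library, while Pdgfra was at 0.524 to 2.93 CPM and Pdgfrb at 0.0969 to 1.73 CPM. The summed level of the 9 was 35240 to 39700 CPM in EV, 29425 to 43146 CPM in LAP and 17008 to 30241 CPM in LIP. Ptprc (blood cells), Pecam1 (endothelium) and Myod1 (muscle) had 0 counts in all 9 libraries. Other markers on the same lists were detected: Cd68 (blood cells) at 2.51 to 8.19 CPM, Tek (endothelium) at 0.163 to 1.11 CPM and Des (muscle) at 0.776 to 1.85 CPM. Myc, Mapk9 and Hmga1 also stood at 0 in all 9 libraries. Whether a 0 here means no transcript or a gap in the counting was not tested. Of the 4 epithelial markers, Epcam and Krt5 were below 1 CPM throughout, Cdh1 was at 0.786 to 3.69 CPM and Krt14, a keratin of basal epithelium, at 82.1 to 244 CPM.

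None of the 10 genes differed between EV, LAP and LIP cells by the test across all genes. What varied was the level between libraries of the same group. Fos, Fosb and Egr1 stood 11.2 to 21.7 times higher in the third EV library than in the mean of the other EV libraries, and 6.34 to 10.8 times higher in the third LAP library than in the mean of the other LAP libraries. In the third LIP library Fos and Fosb were lower than in the mean of the other LIP libraries, and Egr1 was 1.69 times higher. Fosl2, Jund and Ier3 stayed within 1.94-fold over all 9 libraries.

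Compared per kilobase of exon, Ier3 was at the top with a median of 162 CPM per kb over the 9 libraries. Jund (53.4), Fosl2 (53.1), Junb (44.2) and Jun (36.3 CPM per kb) followed, then Ier2 (18.0), Egr1 (11.6) and Fosl1 (7.11 CPM per kb). Fos (1.29 CPM per kb) and Fosb (0.204 CPM per kb) were the lowest of the 10. By this median, Fosl2 and Jund were the highest of the Fos and the Jun family. Junb was above Jund in EV replicate 3 (71.5 against 69.3 CPM per kb) and in LAP replicate 1 (50.8 against 49.0 CPM per kb). Without division by length, the median of Jun (116 CPM) was above that of Jund (89.0 CPM). Ier3 was above Jund in 9 of 9 libraries without overlap of the ranges. Junb was above Jun, and Fos above Fosb, within each of the 9 libraries, although the ranges over libraries overlapped. The order was less fixed between Jund and Fosl2, between Ier2 and Egr1 and between Egr1 and Fosl1, each of which held in 6 of 9 libraries.

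Fos (chr12:85473890-85477274, GRCm38.p6, plus strand) encodes the inducible partner of Jun proteins. Its level was 2.52, 1.92 and 25.9 CPM in EV replicates 1, 2 and 3, and 3.11, 1.98 and 16.1 CPM in the LAP replicates. In LIP it was 3.71, 2.72 and 2.68 CPM. EV and LAP each had a single library far above the others, whereas the LIP libraries lay close together and near the lower libraries of EV and LAP. As counts, these are 81, 52 and 884 reads in EV, 101, 55 and 436 in LAP and 91, 83 and 83 in LIP. Fos was lower in LIP than in EV by a log2 fold change of -1.74 (SE 0.746, 95% interval -3.36 to -0.12), with a Benjamini-Hochberg adjusted p of 0.418 in edgeR's quasi-likelihood test. LIP stood at -1.21 relative to LAP (SE 0.530, adjusted p 0.469 by the same edgeR test), and -0.63 (adjusted p 0.306) with the replicate number as a block.

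Fosb (chr7:19302696-19310118, minus strand), which encodes a second inducible Fos protein, had the lowest level and the widest range. It was at 0.40, 0.37 and 8.38 CPM in EV, 0.77, 0.25 and 5.51 CPM in LAP and 1.10, 1.15 and 0.32 CPM in LIP. The high libraries were again the third of EV and the third of LAP, and the third was here the lowest of LIP. The counts behind the low values are small, from 7 to 35 reads outside the third EV and LAP libraries. The log2 fold change of LIP against EV was -1.85 (SE 0.945, 95% interval -3.90 to 0.20, adjusted p 0.516 by edgeR).

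Fosl1 (chr19:5447698-5455938, plus strand) encodes Fra-1, a Fos protein that is itself induced by AP-1 and lasts longer after a stimulus. Its level was 13.3, 14.9 and 11.5 CPM in EV and 16.4, 11.6 and 12.2 CPM in LAP. In LIP it was 24.0, 24.2 and 4.72 CPM. Both LIP replicates 1 and 2 were above every EV and LAP library, and LIP replicate 3 was below all of them. LIP against EV gave a log2 fold change of 0.41 (SE 0.432, 95% interval -0.53 to 1.35, adjusted p 0.711 by edgeR). Ccdc85b overlaps Fosl1 on the other strand and had 4.02 to 7.62 CPM, and since the library kit does not keep the strand, reads of the shared stretch cannot be told apart.

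Fosl2 (chr5:32136472-32157840, plus strand) encodes Fra-2. It was at 362, 347 and 419 CPM in EV, 325, 265 and 433 CPM in LAP and 334, 366 and 278 CPM in LIP. The groups overlapped, and the third library was the highest of EV and of LAP and the lowest of LIP. The log2 fold changes against EV were -0.21 for LIP (SE 0.173, 95% interval -0.58 to 0.17) and -0.15 for LAP (SE 0.199).

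Jun (chr4:95049036-95052222, minus strand) encodes the Jun protein that pairs with all Fos proteins and also with itself. It was at 112, 124 and 118 CPM in EV, with an SD of 5.97 CPM, and at 121, 87.8 and 116 CPM in LAP. In LIP it was at 141, 96.2 and 56.7 CPM, which are both the highest and the lowest level of the 9 libraries. Jun was thus not high in the third library of EV or LAP. The log2 fold change of LIP against EV was -0.27 (SE 0.254, 95% interval -0.82 to 0.28, adjusted p 0.706 by edgeR). Junos, an antisense gene, overlaps Jun and is not a row of the table.

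Junb (chr8:84976909-84978748, minus strand) encodes a Jun protein that activates less strongly than Jun at many sites. Its level was 80.0, 70.8 and 129 CPM in EV, 91.8, 62.8 and 106 CPM in LAP and 89.9, 77.6 and 59.3 CPM in LIP. It shared the order of Fos, with the third library at the top of EV and LAP and at the bottom of LIP, over a range of 2.18-fold. Its log2 fold change was -0.31 in LIP against EV (SE 0.229) and -0.11 in LAP against EV (SE 0.235).

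Jund (chr8:70697739-70700616, plus strand) encodes the Jun protein that is made in resting cells too. It was at 94.7, 89.0 and 116 CPM in EV, 81.7, 62.0 and 120 CPM in LAP and 88.4, 86.4 and 120 CPM in LIP. The third library was the highest in all 3 groups, and the groups covered nearly the same range. LIP against EV gave a log2 fold change of -0.020 (SE 0.177, 95% interval -0.40 to 0.36).

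Egr1, on chromosome 18, encodes a zinc finger factor that SRF and ternary complex factors induce together with Fos. It was at 21.3, 23.03 and 248 CPM in EV, 35.3, 22.1 and 183 CPM in LAP and 31.7, 51.7 and 70.4 CPM in LIP. The third EV library had 8468 Egr1 reads, against 686 and 624 in the others. Each group had its highest level in the third library, by 11.2 times in EV, 6.38 times in LAP and 1.69 times in LIP over the mean of the others. The log2 fold change of LIP against EV was -0.93 (SE 0.715, 95% interval -2.48 to 0.62, adjusted p 0.695 by edgeR), and that of LAP against EV was -0.28 (SE 0.817).

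Ier2 (chr8:84661331-84662852, minus strand) encodes a small nuclear protein. It was at 22.6, 26.6 and 67.0 CPM in EV, 27.5, 22.4 and 44.9 CPM in LAP and 33.6, 27.7 and 24.8 CPM in LIP. Like Fos, it was highest in the third EV and LAP libraries and lowest in the third LIP library, with a smaller range of 2.99-fold. The log2 fold change of LIP against EV was -0.43 (SE 0.331).

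Ier3 (chr17:35821713-35822911, plus strand), a gene induced by ERK and NF-κB that acts on cell survival, had its highest mean in LIP, 204 ± 30.2 CPM (SD, n = 3), beside 166 ± 30.0 CPM in EV and 180.2 ± 34.5 CPM in LAP. By library it was at 148, 149 and 200.2 CPM in EV, 184, 144 and 213 CPM in LAP and 223, 219 and 169 CPM in LIP. The groups overlapped through the third LIP library. LIP against EV gave a log2 fold change of 0.30 (SE 0.181, 95% interval -0.095 to 0.69, adjusted p 0.612 by edgeR).

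**Figure D1:**
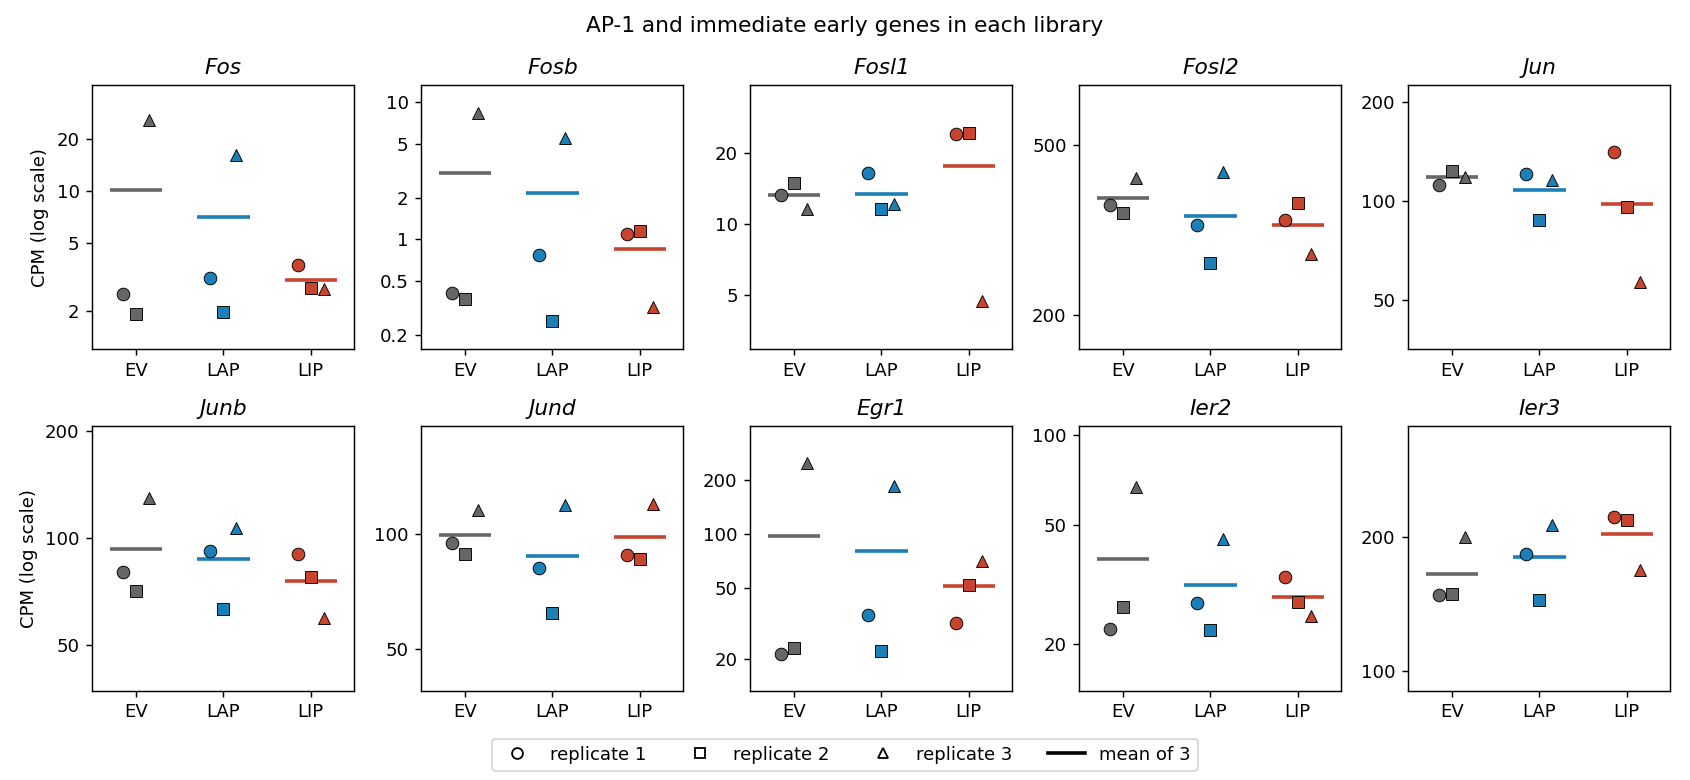
CPM of each gene (log scale, own range in each panel) in the EV, LAP and LIP libraries, with the replicate number as the symbol and the group mean as a line. Replicate 3 of EV and of LAP stands far above the others for Fos (25.9 and 16.1 CPM), Fosb (8.38 and 5.51 CPM) and Egr1 (248 and 183 CPM), and replicate 3 of LIP stands lowest for Fosl1 (4.72 CPM) and Jun (56.7 CPM).

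The first comparison asked which genes the expression of LIP changes in cells without C/EBPβ. In LIP against EV, 0 of the 10 genes passed the threshold of an adjusted p of 0.05 in edgeR's quasi-likelihood test, where 0.396% of the 18203 genes tested did. Only Fos had an unadjusted p under 0.05 in edgeR's test (0.0371), against 11.0% of all genes. Fos, Fosb, Fosl2, Jun, Junb, Jund, Egr1 and Ier2 had log2 fold changes below 0, Fosl1 and Ier3 above 0, and the median over the 10 genes was -0.29, beside 0.039 over all genes tested. In bulk RNA, fewer cells with a transcript and less of it per cell cannot be told apart.

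The second comparison asked the same of LAP. In LAP against EV, 0 of the 10 genes passed, where 0.0606% of all genes did, and none had an unadjusted p under 0.05 (3.27% of all genes). The log2 fold changes lay between -0.53 for Fos and 0.11 for Ier3, with a median of -0.17 beside 0.016 over all genes. Fosl1 was nearest to equal, with a log2 fold change of 0.0096 and a 95% interval of -0.41 to 0.43. For Fos and Egr1 the 95% intervals were wide, from -2.30 to 1.24 and from -2.03 to 1.47, and so included large differences in either direction. The smallest difference that these libraries could detect was not determined.

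The third comparison, LIP against LAP, is the direct test of a difference between the isoforms. Again 0 of the 10 genes passed, where 1.05% of all genes did, and Fos was the only gene of the 10 with an unadjusted p under 0.05 in edgeR's test (0.0334), against 9.28% of all genes. The median was -0.13, beside 0.021 over all genes. DESeq2's Wald test and edgeR's exact test also called 0 of the 10 genes in each of the 3 comparisons. None of the 10 genes separated any pair of groups without overlap, which 15.6% of all genes did in LIP against EV, 7.57% in LAP against EV and 12.8% in LIP against LAP. The exact two-sided permutation test of CPM, which cannot go below 0.1 with 3 libraries against 3, gave its smallest p among the 10 genes, 0.2, for Ier3 in LIP against EV. The 3 comparisons share libraries and are not independent of each other.

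**Figure D2:**
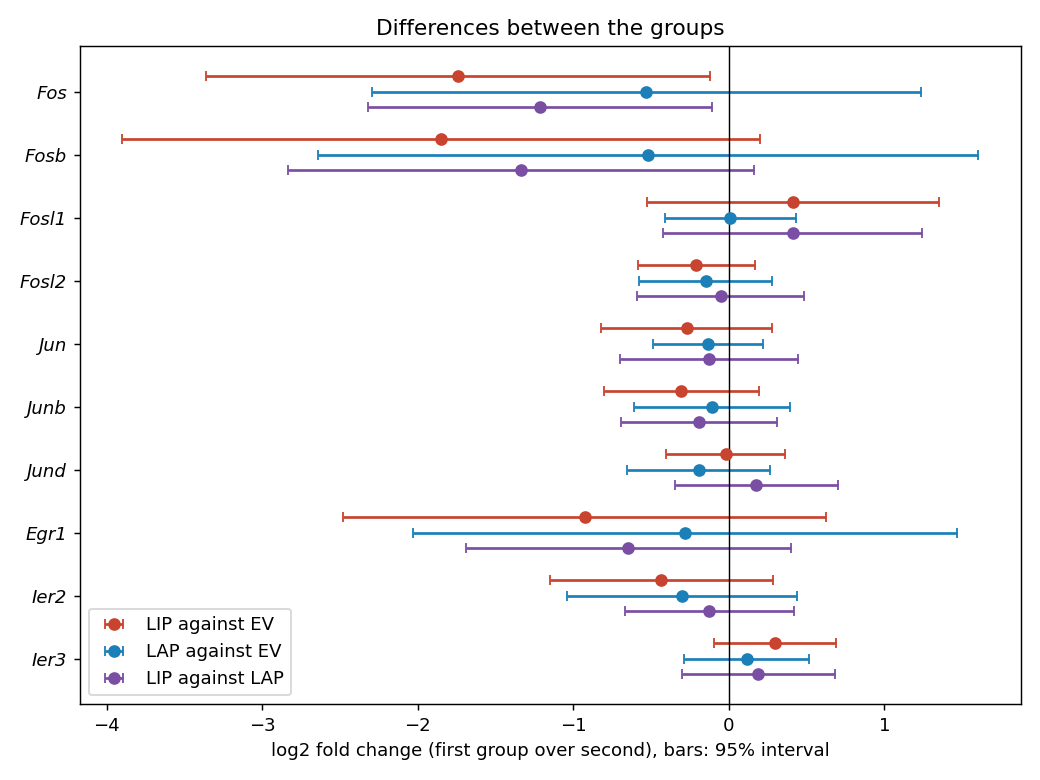
Log2 fold changes of the 10 genes in the 3 comparisons by edgeR's quasi-likelihood fit, with 95% intervals as bars. The intervals of Fos, Fosb and Egr1 are several times wider than those of Jund or Fosl2, and the interval leaves out 0 for Fos alone, in LIP against EV (-3.36 to -0.12) and in LIP against LAP (-2.32 to -0.11).

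The spread between libraries of 1 group was compared with that of the 10252 genes whose mean count was 50 or more. Fosb, with a mean of 62.4 counts, reached this only through the third EV and LAP libraries. Its other libraries held 7 to 35 reads, and genes as low without such high libraries were left out. Within EV, the SD of log2 CPM was 2.0 for Egr1, 1.92 for Fosb and 1.90 for Fos, where the median gene had 0.132. At least 99.97% of genes had a smaller SD than each of these. Ier2 (SD 0.835) exceeded 99.5% and Junb (SD 0.457) 96.5% of genes, while Jun, with an SD of 0.0729, exceeded only 21.3%. Within LAP the order was the same at the top, with SDs of 1.59 for Egr1, 1.56 for Fosb and 1.45 for Fos against a median of 0.236. Within LIP the widest of the 10 was Fosl1, with an SD of 1.29 against a median of 0.265, followed by Jun with 0.656.

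The third EV library was the highest of its group for 8 of the 10 genes, all but Fosl1 and Jun, where it was the highest for 37.0% of the 10252 genes. The third LAP library was the highest of its group for the same 8 genes (31.8% of all genes). In LIP the third library was instead the lowest for 8 genes, all but Jund and Egr1 (33.6% of all genes). LAP replicate 2 was the lowest of LAP for all 10 genes (38.3% of all genes). At least 2-fold above the mean of the other libraries of the group were Fos, Fosb, Egr1 and Ier2 in EV replicate 3 (0.458% of all genes) and Fos, Fosb and Egr1 in LAP replicate 3 (0.332%). In LIP replicate 3 none of the 10 was (2.26% of all genes), and Fosb (0.29 times), Fosl1 (0.20 times) and Jun (0.48 times) were at or below 1/2 of that mean (5.27% of all genes).

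Only 11 of the 10252 genes (0.107%) were at least 2-fold higher in both EV replicate 3 and LAP replicate 3, and Fosb, Egr1 and Fos held the top 3 places by the smaller of the ratios. The place of Fosb rests on the same libraries that brought it over the mean count, and genes with lower mean counts were not ranked. Among the others was Egr2, a zinc finger gene related to Egr1, at 8.41 times in EV, 3.41 times in LAP and 0.40 times in LIP. The remaining 7 were Rmrp, E330013P04Rik, Rn45s, Xdh, Ip6k3, Gm15800 and Kif26b, named here after their values were seen. Of the 11, 3 (0.0293% of all genes) were at least 2-fold higher in the third library of all 3 groups: Rmrp and Rn45s, RNAs made without a poly(A) tail, and Kif26b, a kinesin family gene. Rmrp was at 5.59, 3.55 and 6.92 times, Rn45s at 3.64, 2.52 and 3.50 times and Kif26b at 2.24, 2.07 and 2.61 times in EV, LAP and LIP. The summed level of the epithelial markers was mostly that of Krt14. This sum was also highest in the third library of each group (228, 247 and 210 CPM), as were 12.1% of all genes. The part of any of these in the levels of Fos, Fosb and Egr1 was not tested.

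**Figure D3:**
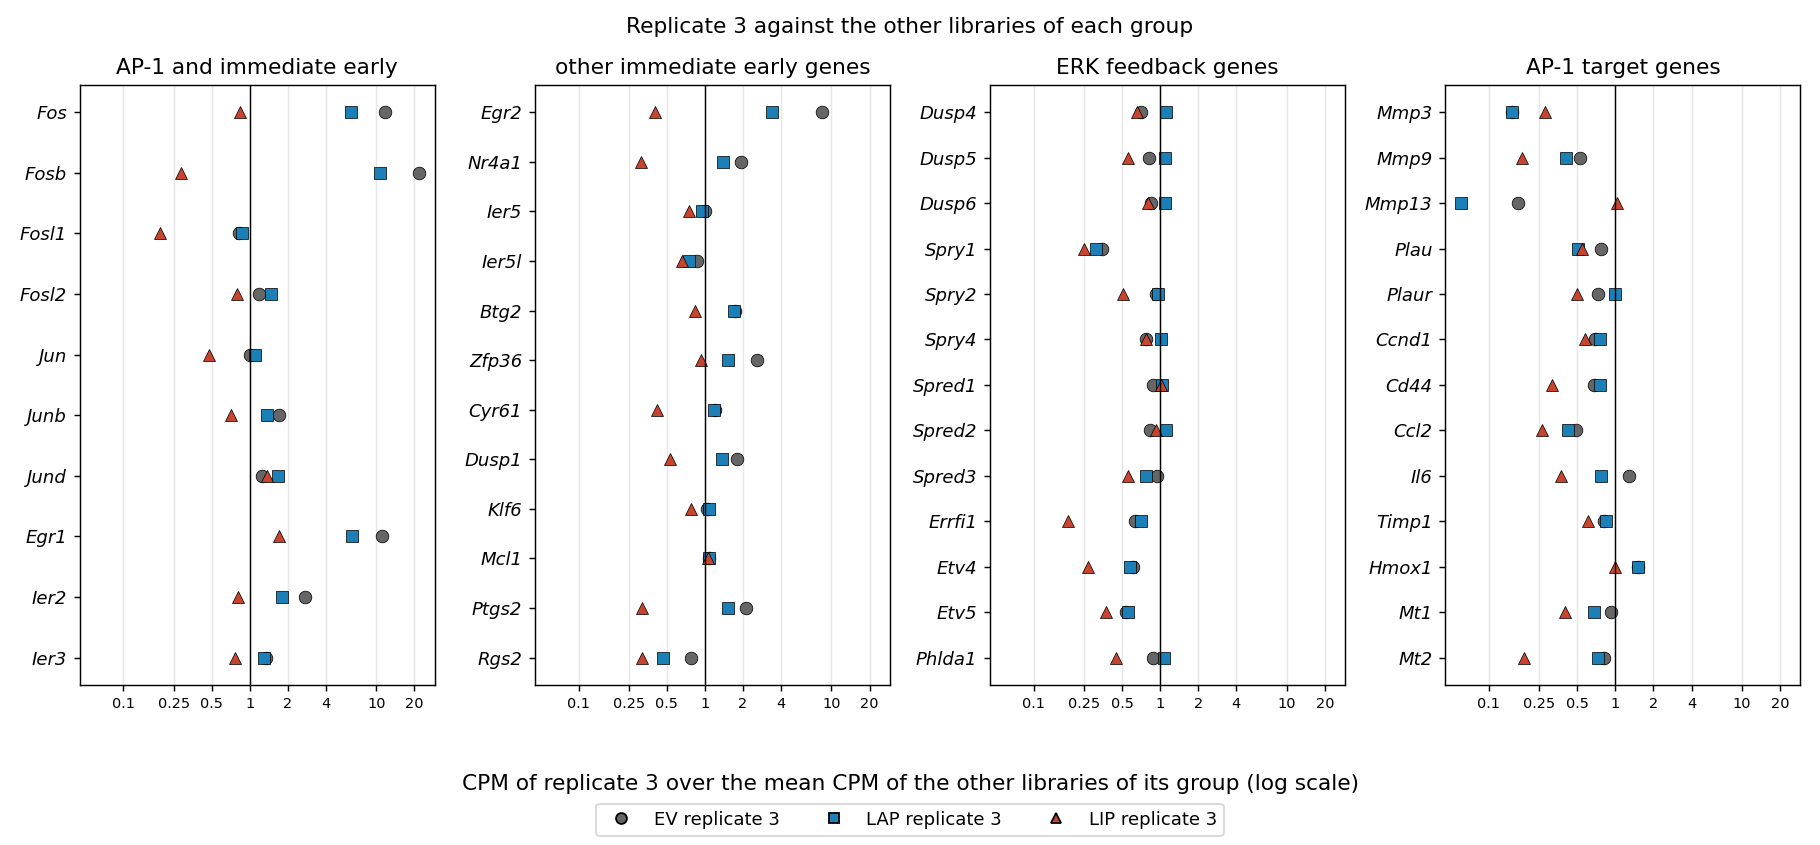
CPM of the third library of each group divided by the mean CPM of the other libraries of its group (log scale), for the 10 genes and for 3 lists of related genes whose mean count was 50 or more. In EV (circles) and LAP (squares) Fos, Fosb, Egr1 and Egr2 reach 3.41 to 21.7. The ERK feedback genes of EV replicate 3 are all below 1, while 7 of 13 in LAP replicate 3 are above 1. For LIP replicate 3 (triangles), 8 of 13 AP-1 target genes are at or below 1/2 (5.27% of all genes).

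The direction of the group differences in Fos, Fosb and Egr1 rested on the third libraries. Without EV replicate 3, the log2 fold change of LIP against EV was 0.45 for Fos (SE 0.341), 1.13 for Fosb (SE 0.583), 1.21 for Egr1 (SE 0.286) and 0.22 for Ier2 (SE 0.221). These had the opposite sign to the values with all libraries, and the smallest adjusted p among them was 0.0982, for Egr1. In LIP against LAP, leaving out LAP replicate 3 likewise gave 0.31 for Fos, 0.77 for Fosb and 0.89 for Egr1. In LAP against EV, the value of Fos ranged from -2.002 without LAP replicate 3 to 1.66 without EV replicate 3, and that of Egr1 from -1.77 to 1.85.

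Without replicate 3 of both groups, a choice made after seeing the data, Egr1 was higher in LIP than in EV by a log2 fold change of 0.91 (SE 0.224, adjusted p 0.0363 by edgeR's quasi-likelihood test) and was the only gene of the 10 to pass. Fosl1 had 0.77 there (adjusted p 0.056) and Fos 0.53 (adjusted p 0.506). Fosl1 passed when only LIP replicate 3 was left out, with a log2 fold change of 0.87 (SE 0.185, adjusted p 0.0258). Jun had 0.016 without LIP replicate 3. In LIP against LAP without replicate 3 of both groups, 0 of the 10 genes passed, and Fosl1 had 0.84 (adjusted p 0.159).

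**Figure D4:**
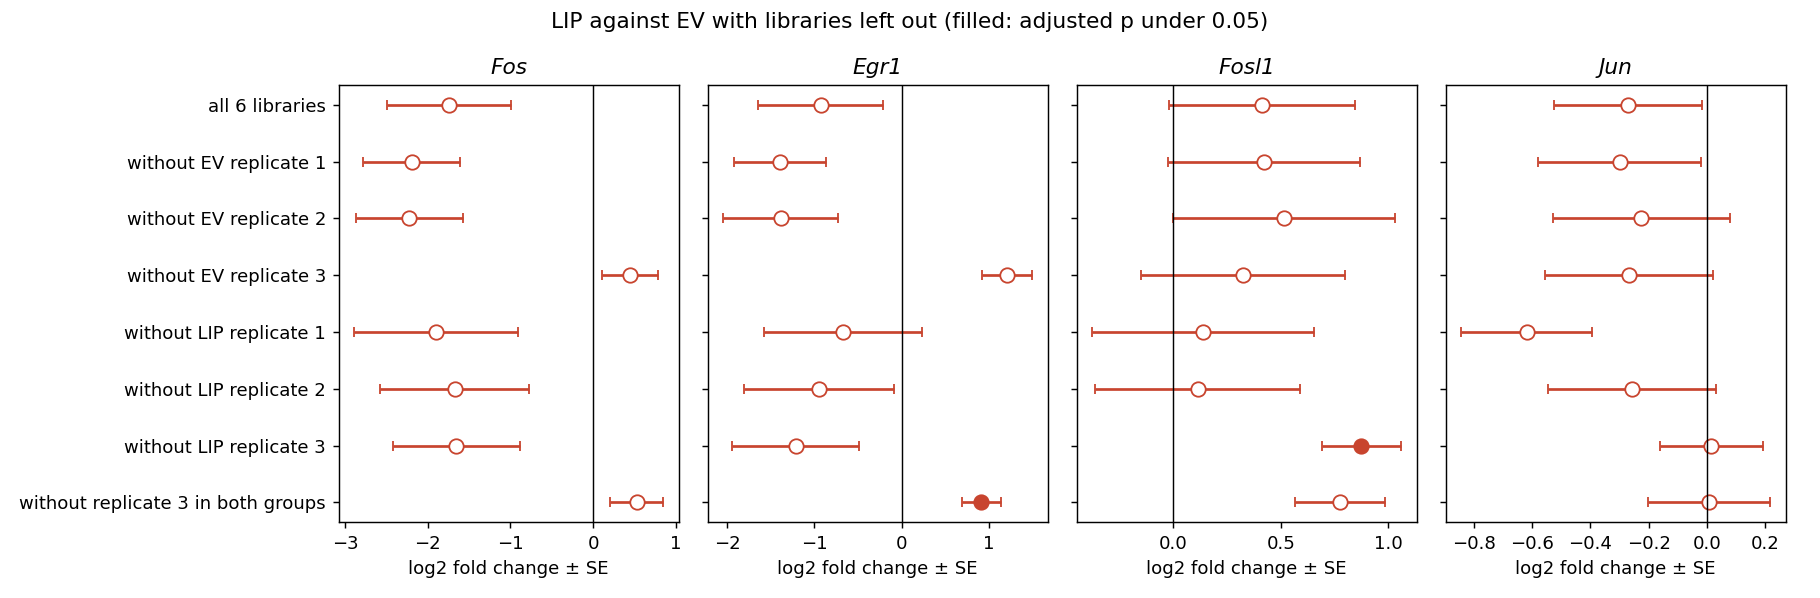
Log2 fold change of LIP against EV (± SE) for Fos, Egr1, Fosl1 and Jun with all 6 libraries and with libraries left out, where filled symbols passed an adjusted p of 0.05. Fos moves from -1.74 to 0.45 and Egr1 from -0.93 to 1.21 without EV replicate 3, and Fosl1 moves from 0.41 to 0.87 without LIP replicate 3.

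Genes that work with AP-1, or above or below it, were read from lists. Other immediate early genes shared part of the pattern of the third libraries. Of the 12 whose mean count was 50 or more, Egr2 (8.41 times), Zfp36 (2.60 times) and Ptgs2 (2.11 times) were at least 2-fold higher in EV replicate 3, and Egr2 alone in LAP replicate 3. The median ratio of the 12 was 1.47 in EV replicate 3, beside 1.53 for the 10 genes, and 0.59 in LIP replicate 3, beside 0.78. In each comparison of groups 0 of 18 passed, by edgeR's quasi-likelihood test, and 0 of 18 had an unadjusted p under 0.05. Their median log2 fold change was -0.31 in LIP against EV, -0.079 in LAP against EV and -0.25 in LIP against LAP. Myc was listed at 0 in all 9 libraries and was not tested. Ier5l and Dusp1, named for the smallest p in LIP against EV, had log2 fold changes of -0.40 (SE 0.235) and -0.48 (SE 0.285) there. With the replicate block, 1 of 18, Ptgs2, was lower in LIP than in LAP (log2 fold change -0.69, SE 0.218, adjusted p 0.0345 by edgeR), where 4.79% of all genes were lower.

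Among the ERK feedback genes, which ERK signalling induces and whose products restrain it, Dusp4, a phosphatase of nuclear ERK, was higher in LIP than in LAP. Its level was 65.4, 62.8 and 42.1 CPM in LIP, 30.9, 24.8 and 30.9 CPM in LAP and 33.7, 44.2 and 27.4 CPM in EV. The LIP libraries were above all LAP libraries, and the third of them was below EV replicate 2. LIP against LAP gave a log2 fold change of 0.99 (SE 0.231, adjusted p 0.0453 by edgeR's quasi-likelihood test). Without the replicate block, Dusp4 was the only one of 13 to pass in any comparison, where 0.209% of all genes were higher in LIP than in LAP. It no longer passed without LAP replicate 1 (adjusted p 0.0688), LAP replicate 2 (0.218), LIP replicate 1 (0.174) or LIP replicate 2 (0.129). Against EV, Dusp6, a phosphatase of cytoplasmic ERK, had 0.66 (SE 0.177, adjusted p 0.148) and Dusp4 0.69 (SE 0.215, adjusted p 0.228) in LIP. The median of the 13 was 0.13 in LIP against EV, -0.094 in LAP against EV and 0.19 in LIP against LAP. With the replicate block, Dusp4, Dusp5, Dusp6 and Etv4 were higher and Spry1 was lower in LIP than in LAP, that is 4 of 13 higher where 1.72% of all genes were, and 1 of 13 lower where 4.79% were. In LIP against EV with the block, Dusp4 was higher (0.357% of all genes) and Spry1 lower (2.21% of all genes). None of the 13 was above 1 in EV replicate 3 relative to the other EV libraries (median 0.81). In LAP replicate 3, 7 of 13 were above 1 relative to the other LAP libraries (median 1.01). The share of all genes above 1 was not counted.

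The AP-1 target genes include proteases of the matrix, cytokines and metallothioneins. Without the replicate block, 0 of 15 passed the threshold of edgeR's quasi-likelihood test in each comparison. Their median log2 fold change was -0.38 in LIP against EV, 0.0067 in LAP against EV and -0.55 in LIP against LAP. An unadjusted p under 0.05 was reached by 3 of 15 in LIP against EV, all lower, where 6.75% of all genes were, and by 2 of 15 in LAP against EV, both higher, where 1.93% of all genes were. In LIP against LAP 7 of 15 had an unadjusted p under 0.05 and all of them were lower in LIP, where 5.98% of all genes were. With the replicate block, Mmp3, Mmp9, Ccl2, Il6, Timp1, Mt1 and Mt2 were lower in LIP than in LAP, which is 7 of 15, against 4.79% of all genes, by log2 fold changes from -0.92 for Mt1 to -2.02 for Mmp9. Mmp3 and Mmp9 were higher in LAP than in EV with the block, against 0.132% of all genes, and 3 of 15, Ccl2, Mt1 and Mt2, were lower in LIP than in EV with the block, against 2.21% of all genes. Mt1 and Mt2, metal-binding proteins, had log2 fold changes of -1.05 (SE 0.283, adjusted p 0.154 by edgeR) and -1.13 (SE 0.453, adjusted p 0.381) in LIP against EV. Their lowest levels were in LIP replicate 3, at 37.3 CPM for Mt1 and 15.2 CPM for Mt2, where 8 of the 13 targets with enough counts were at 1/2 or less of the mean of the other LIP libraries, beside 5.27% of all genes. In the same library 5 of 12 other immediate early genes and 5 of 13 ERK feedback genes were at 1/2 or less. In EV replicate 3, where Fos was highest, 3 of 13 targets were at 1/2 or less, as 1.10% of all genes were: Mmp3 (0.15 times), Mmp13 (0.17 times) and Ccl2 (0.48 times). In LAP replicate 3 these were 4 of 13, beside 3.14% of all genes: Mmp3 (0.15 times), Mmp9 (0.41 times), Mmp13 (0.061 times) and Ccl2 (0.42 times). A link between these levels and that of Fos was not tested.

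Of the AP-1 partners, other leucine zipper genes whose proteins pair with Fos or Jun proteins, Mafg, a small Maf gene, had 0.39 in LIP against EV (SE 0.184, adjusted p 0.476 by edgeR). By edgeR's quasi-likelihood test, 0 of 15 partners passed in LIP against EV and in LAP against EV. In LIP against LAP 1 of 15, not reported here, was lower, where 0.837% of all genes were. With the replicate block, 1 of 15 was lower in LIP than in LAP (4.79% of all genes). In LAP against EV with the block, 1 of 15 was higher (0.132% of all genes). The kinases and factors upstream had 0 of 22, 0 of 22 and 0 of 21 past the threshold in LIP against EV, LAP against EV and LIP against LAP, and 0 with an unadjusted p under 0.05, by edgeR's quasi-likelihood test. Their median log2 fold changes were 0.00019, -0.090 and 0.10. Mapk7, a kinase of the ERK class, had 0.23 (SE 0.164) in LIP against EV.

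Patterns over the 9 libraries were compared by the root mean square difference of log2 CPM, each gene centred on its own mean, among genes whose SD over the libraries was at least 1/2 of that of the gene compared (543 for Fos, 475 for Egr1, 3017 for Fosl1 and 7394 for Jun). Among genes outside the 10, Egr2 was nearest to Fos (0.46), followed by Ip6k3 (0.61) and Xdh (0.71), and within the 10 Fosb was at 0.26 and Egr1 at 0.49. Egr2 was also nearest to Egr1 (0.67), before Rn45s (0.78) and Ip6k3 (0.78). Nearest to Fosl1 were Lrp8 (0.22), Hmga2 (0.23) and Ndst3 (0.25), all low in LIP replicate 3. Lrp8 was at 15.5, 19.5 and 4.84 CPM in LIP. For Jun these were Ddah1 (0.10), Igf2bp2 (0.13) and Ufsp1 (0.13). The values describe 9 libraries that share a cell line, and the Fos pattern is set mainly by EV replicate 3 and LAP replicate 3.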

How the data were processed

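RNA of 9 libraries of Cebpb-ko MEFs was prepared with Illumina's TruSeq RNA kit v2. The authors deposited raw counts, the reads per gene symbol and library, made per the submitters' processing notes with bcl2fastq 1.8.3, TopHat 1.4.1 and HTSeq 0.5.4 on mm10. The notes also list a human build, whose role is not given. Strand setting and the handling of reads with several alignments are not given in the sources used here. Columns were mapped by title, and 0 were left unused. Of the listed gene symbols, Hras and 1 blood marker were not rows of the table as analysed here, and Nrl, Myc, Mapk9 and Hmga1 were listed at 0 in all 9 libraries.

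Each comparison was fitted on its 6 libraries, over all genes with 1 count or more in these. TMM scaling and the quasi-likelihood test of edgeR 4.0.16 under R 4.3.3 were applied without covariates, adjusted by Benjamini-Hochberg over all genes tested, with a threshold of 0.05. The script was tested on simulated data. An SE is the log2 fold change over the square root of the F statistic. CPM in the text use TMM factors over 9 libraries, and permutation tests those of the 6 compared. Ratios between libraries and likeness used genes whose mean count was 50 or more, and log2 CPM had 0.5 CPM added. Lengths are unions of exons in GENCODE and start site regions and positions are from RefSeq on GRCm38.p6.

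All 10 genes are named. From each list, the genes past the threshold are named, otherwise the 2 with the smallest p in LIP against EV, and some genes chosen by this rule are not reported here. The members, the lists and the tests were chosen with earlier results of these data known. Genes called only with the replicate block, and those of the third-library ratios, were named after their values were seen. Alternatives were DESeq2 1.42.0, edgeR's exact test, filterByExpr, scaling by DESeq2's size factors or by total counts only, 1 model of 9 libraries, the replicate block, an adjusted p under 0.1, each library left out and, chosen after seeing the data, robust estimation and replicate 3 left out of both groups.

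The labels number the libraries 1 to 3 in each group and do not say what a number shares. Deviations from the group means correlated between libraries of the same number by 0.549, 0.222 and 0.517 in LAP against EV and 0.581, 0.425 and 0.481 in LIP against LAP, so the numbers were taken to pair these libraries, and by 0.311, -0.123 and 0.241 in LIP against EV, where they were not. A number that pairs EV with LAP and LAP with LIP would also pair EV with LIP, so whether LIP against EV is paired remains undecided. The main tests were fitted without the replicate number in every comparison. In LAP against EV and LIP against LAP they therefore leave this pairing out, and only the fits with the replicate block use it. Figures were drawn with matplotlib 3.10.9.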

Additional observations from a re-analysis of the deposited data

Results flagged for a closer look

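The effects of LIP and of LAP relative to the same EV libraries differed for Dusp4, by edgeR's quasi-likelihood test of LIP against LAP. Dusp4 had a log2 fold change of 0.99 between LIP and LAP, where LIP stood at 0.69 and LAP at -0.29 relative to EV, and it did not pass the threshold against EV in either group. The difference did not pass with edgeR's filter on low counts, filterByExpr (adjusted p 0.178), or with robust estimation (adjusted p 0.0637). None of the 10 AP-1 and immediate early genes differed in this way, while 1 of 15 AP-1 partners, not reported here, was lower in LIP than in LAP. With 3 libraries a group, no test for outlying libraries was made within EV, LAP or LIP.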

How the results depend on the processing

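In LIP against EV, the count of the 10 genes past the threshold was 0 with all libraries and 0 to 1 when each library was left out, the 1 being Fosl1 without LIP replicate 3, and 1 (Egr1) without replicate 3 of both groups. It was 0 under every other alternative run, among them an adjusted p under 0.1, and in LAP against EV and LIP against LAP it was 0 under all of them. The signs of log2 fold changes depended on single libraries. With single libraries left out, the values whose sign turned ranged, in LIP against EV, from -2.22 to 0.45 for Fos, -2.35 to 1.13 for Fosb, -0.62 to 0.016 for Jun, -0.46 to 0.0030 for Junb, -0.18 to 0.10 for Jund, -1.40 to 1.21 for Egr1 and -0.70 to 0.22 for Ier2. In LAP against EV they ranged from -2.002 to 1.66 for Fos, -2.57 to 2.46 for Fosb, -0.17 to 0.11 for Fosl1, -0.37 to 0.011 for Fosl2, -0.23 to 0.0054 for Jun, -0.28 to 0.20 for Junb, -0.49 to 0.013 for Jund, -1.77 to 1.85 for Egr1, -0.65 to 0.35 for Ier2 and -0.028 to 0.27 for Ier3, and in LIP against LAP from -1.66 to 0.31 for Fos, -1.87 to 0.77 for Fosb, -0.22 to 0.20 for Fosl2, -0.49 to 0.15 for Jun, -0.39 to 0.028 for Junb, -0.036 to 0.51 for Jund, -1.10 to 0.89 for Egr1 and -0.34 to 0.26 for Ier2. Without replicate 3 of both groups, a choice made after seeing the data, the values that turned were 0.53 for Fos, 1.53 for Fosb, 0.0082 for Jun, 0.15 for Junb, 0.91 for Egr1 and 0.32 for Ier2 in LIP against EV, 0.18 for Fos, 0.41 for Fosb, -0.021 for Fosl1, 0.022 for Junb, 0.36 for Egr1 and 0.0055 for Ier2 in LAP against EV, and 0.39 for Fos, 1.17 for Fosb, 0.31 for Fosl2, 0.24 for Jun, 0.17 for Junb, 0.60 for Egr1 and 0.36 for Ier2 in LIP against LAP.

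With the replicate number as a block, the sign turned for Egr1 in LIP against EV (0.0030) and LAP against EV (0.058) and for Fosl1 in LAP against EV (-0.00045), and the block changed no call of the 10 genes. The log2 fold change of Fos in LIP against EV, where not every library correlated best with its own number, was -0.70 with the block in place of -1.74. There the block moved the count over all genes from 72 to 467, among them 1 of 13 ERK feedback genes higher (Dusp4, beside 0.357% of all genes) and, beside 2.21% of all genes, 1 of 13 lower (Spry1) and 3 of 15 AP-1 targets lower (Ccl2, Mt1 and Mt2). Over all genes it moved the count from 11 to 54 in LAP against EV and from 190 to 1183 in LIP against LAP. With total counts only, the sign turned for Jund in LIP against EV (0.014), Fosl1 in LAP against EV (-0.022) and Fosl2 in LIP against LAP (0.017), all near 0. The cause of these changes was not tested. With 3 libraries a group, the group differences of Fos, Fosb and Egr1 had intervals several log2 units wide.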
